A study of Mus musculus with 16 samples.

Results

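In 3T3-L1 preadipocytes, 4028 genomic sites gained a V5-tagged SETD5 island within 6 h of adipogenic induction where neither H3K4me1 nor H3K27ac of empty-vector cells was listed at 0 h. They were chosen from the 35573 islands of SETD5-V5 replicate A at 6 h by 5 successive conditions. Of these islands, 34648 were shorter than 20000 bp, 21752 of those shared at least 1 bp with an island of replicate B, and 12748 of those had no SETD5-V5 island at 0 h in replicate A or B. Excluding a 0 h H3K4me1 island left 6033 sites, and excluding H3K27ac of empty-vector cells at 0 h, A or B, left the 4028 described here. They are 11.3% of the replicate A list and 31.6% of its new replicated sites. SETD5-V5 at 0 h and 6 h, H3K4me1 at 0 h and H3K27ac of empty-vector cells at 0 h are therefore given below as descriptions, whereas the 48 h lists, the 0 h H3K27ac lists of SETD5 cells and the endogenous SETD5 lists were not used in the choice.

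3T3-L1 is an established mouse line of fibroblast-like preadipocytes that turn into fat cells when confluent cultures receive MDI, a mixture of isobutylmethylxanthine, dexamethasone and insulin. The series holds 16 ChIP-seq libraries of this line, each deposited as a list of enriched islands. H3K27ac was profiled in cells carrying an empty retrovirus and in cells carrying a SETD5-V5 retrovirus, before MDI (0 h) and at day 2 (48 h), with replicates A and B in each of the 4 groups, and V5 was profiled at 0 h and 6 h with replicates A and B. H3K4me1 at 0 h and 48 h and endogenous SETD5 at 0 h and 6 h, the latter in cells labelled with no virus, have 1 library each. SETD5-V5 in these cells is an overexpressed protein. The titles of all 4 V5 libraries name SETD5-V5, while the virus field of both replicate A libraries is blank, and the virus field of H3K4me1 names SETD5-V5, which its titles do not. The sites were thus defined by V5 in SETD5-V5 cells and by H3K27ac in empty-vector cells. Lists hold between 2132 and 50276 islands and give no read counts, so depth within an island is not known from them, and a site outside a list was below the caller's threshold rather than free of the mark.

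SETD5 is a SET-domain protein that works with the NCoR-HDAC3 co-repressor, whose HDAC3 subunit removes acetyl groups from histones. H3K4me1 lies on enhancers that are primed or active, and H3K27ac is deposited by CBP and p300 on active enhancers and promoters. In the first hours of fat cell differentiation, C/EBPβ and C/EBPδ, AP-1 and the glucocorticoid receptor bind enhancers before PPARγ and C/EBPα take over, so a SETD5 site in none of the 0 h lists used here lies outside the enhancers that those lists record.

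Reference sequence (mm9, NCBIM37, plus strand) is shown for sites beside lipid, hormone-responsive and matrix genes at which H3K27ac was listed at 48 h in both libraries of at least 1 arm. This was judged on the lists as deposited. With equal numbers of islands (below), the Lpl, Pde4d and Pde3b sites no longer met it. Each line holds 80 bases around the match nearest the site centre of AP-1 (TGANTCA) or C/EBP (TTGCNNAA), the match being in capitals on either strand, and the gene named is the nearest protein-coding gene. These stretches were chosen after their values were seen.
Fabp4 (C/EBP), chr3:10206532-10206611: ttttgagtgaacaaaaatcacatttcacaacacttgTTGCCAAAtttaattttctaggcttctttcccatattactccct
Lpl (C/EBP), chr8:71415666-71415745: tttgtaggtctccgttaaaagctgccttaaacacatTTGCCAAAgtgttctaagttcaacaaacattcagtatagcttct
Scd1 (AP-1), chr19:44453611-44453690: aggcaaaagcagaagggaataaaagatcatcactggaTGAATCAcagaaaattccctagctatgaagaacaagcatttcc
Pdk4 (AP-1), chr6:5493168-5493247: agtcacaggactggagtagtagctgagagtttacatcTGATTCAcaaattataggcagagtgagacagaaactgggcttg
Pdk4 (C/EBP), chr6:5493664-5493743: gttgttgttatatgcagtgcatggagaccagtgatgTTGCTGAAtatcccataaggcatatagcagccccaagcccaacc
Pde4b (AP-1), chr4:102212700-102212779: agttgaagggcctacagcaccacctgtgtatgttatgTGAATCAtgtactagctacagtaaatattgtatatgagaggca
Pde4b (C/EBP), chr4:102212395-102212474: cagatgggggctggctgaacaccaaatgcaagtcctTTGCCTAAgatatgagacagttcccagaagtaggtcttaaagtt
Tsc22d3 (C/EBP), chrX:137107395-137107474: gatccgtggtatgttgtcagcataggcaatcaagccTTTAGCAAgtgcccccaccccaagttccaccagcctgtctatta
Timp3 (AP-1), chr10:85733232-85733311: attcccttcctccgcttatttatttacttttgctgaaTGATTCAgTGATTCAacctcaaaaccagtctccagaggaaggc
Pde4d (AP-1), chr13:110453246-110453325: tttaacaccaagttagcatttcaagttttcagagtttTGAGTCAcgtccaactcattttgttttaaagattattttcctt
Pde3b (C/EBP), chr7:121600347-121600426: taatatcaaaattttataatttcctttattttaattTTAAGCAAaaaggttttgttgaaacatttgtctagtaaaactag

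None of these stretches overlaps an annotated UTR. The stretches beside Scd1 and Pdk4 are intergenic, that of Timp3 lies in an intron of Syn3, and all others lie in introns of the gene named. A contrast is given by the central 200 bases of the highest-scoring site with 48 h H3K27ac in both empty-vector lists and neither SETD5 list, beside Has2, and of the highest-scoring site with the opposite pattern, in an intron of Otud7b. Neither stretch holds a match of the 5 motifs searched, so neither has capitals.
Has2 (site centre), chr15:56653901-56654100: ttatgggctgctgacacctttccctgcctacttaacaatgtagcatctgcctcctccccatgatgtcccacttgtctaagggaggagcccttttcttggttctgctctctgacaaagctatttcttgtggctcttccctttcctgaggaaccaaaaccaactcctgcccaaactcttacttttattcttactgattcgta
Otud7b (site centre), chr3:95935801-95936000: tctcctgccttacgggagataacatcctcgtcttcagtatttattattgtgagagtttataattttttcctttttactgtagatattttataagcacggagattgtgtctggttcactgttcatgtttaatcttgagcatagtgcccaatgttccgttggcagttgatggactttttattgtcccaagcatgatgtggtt

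The 6 h islands at these sites were narrow and of middling score. Their length ranged from 200 to 18800 bp with a median of 3200 bp, against 3600 bp for all replicate A islands under the length limit. The caller's score in replicate A, which ranks islands within a list and has no unit, ran from 26.3 to 508. Its median was 54.1, against 59.3 for all replicate A islands under the length limit. Of the sites, 58.2% were below the median of 61.0 of the whole list, against 51.3% of all islands under the limit. Replicate B islands covered a median of 77.8% of each site, and their median score was 50.4. Only 7 sites otherwise eligible were over the length limit, the shortest of them 20000 bp long.

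The 48 h lists divided the sites into those with and without later enhancer marks. A total of 1804 sites (44.8%) were in none of the 4 H3K27ac lists nor in the H3K4me1 list at 48 h, against 19.1% of all 34648 replicate A islands under the length limit, a background that includes the sites themselves. H3K4me1 without H3K27ac was listed at 402 sites (9.98%; 10.1% of all islands), and H3K27ac in all 4 lists at 728 (18.1%; 50% of all islands). H3K27ac was listed in both empty-vector libraries and neither SETD5 library at 108 sites (2.68%; 1.36% of all islands), and in both SETD5 libraries and neither empty-vector library at 344 (8.54%; 6.38% of all islands). The other 642 sites (15.9%; 13.1% of all islands) had H3K27ac in another combination of lists, and any 48 h H3K27ac was listed at 1822 sites (45.2%; 70.8% of all islands). H3K4me1 accompanied H3K27ac at 61.4% of the sites in all 4 lists, at 56.5% of those in the empty-vector lists alone and at 28.2% of those in the SETD5 lists alone. Over all islands these shares were 72.3%, 71.3% and 49.4%, so the SETD5 lists alone were lowest there too. These are shares of sites in single lists and carry no test.

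**Figure D1:**
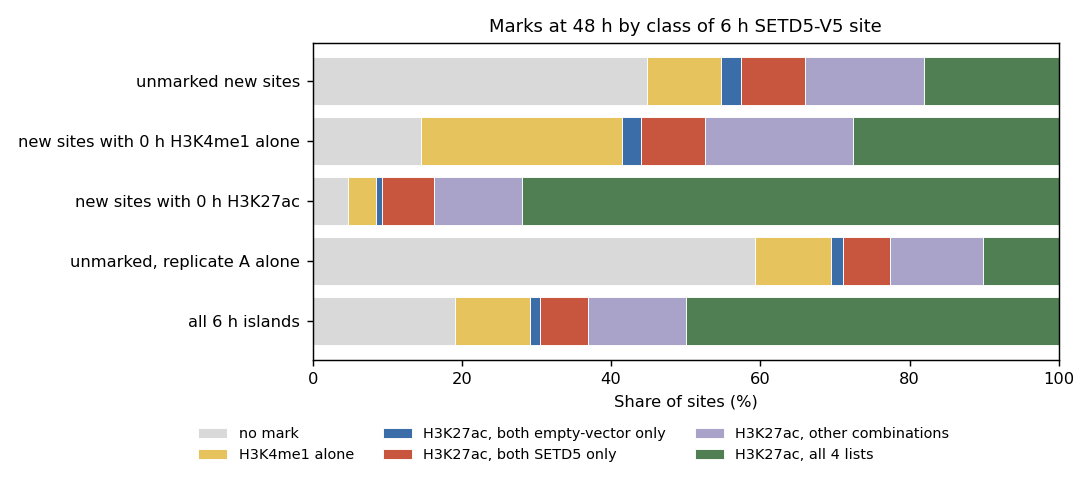
Share of sites (%) in each combination of 48 h lists, for the unmarked new sites and for 4 other classes of 6 h SETD5-V5 island, all under 20000 bp; "only" means in both libraries of that arm and in neither of the other. The grey part, sites in none of the 5 lists at 48 h, is 44.8% of the unmarked new sites and 19.1% of all islands.

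At 48 h, 31.2% of the sites (1256) overlapped an H3K4me1 island, against 58.1% of all islands. With 1 library per time this share has no replicate error. In empty-vector cells the H3K27ac share of the sites was 26.0% in replicate A (1049 sites) and 28.0% in replicate B (1126 sites), where 56.1% and 57.3% of all islands overlapped. In SETD5 cells it was 34.5% in replicate A (1389 sites) and 36% in replicate B (1451 sites), against 63.6% and 64.9% of all islands. Both SETD5 libraries thus lay above both empty-vector libraries, at the sites and over all islands alike.

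The mean share was 27% ± 1.35 (SD, n = 2) in empty-vector cells and 35.3% ± 1.09 (SD, n = 2) in SETD5 cells. Empty vector minus SETD5 was −8.25 percentage points (−8.44 in A and −8.07 in B; two-sided exact permutation test over libraries, p = 0.333, the smallest that 2 against 2 libraries can give). Over all islands the same difference was −7.59 points. The SETD5 lists were also longer, with 39068 and 39451 islands at 48 h against 31292 and 33131 in empty-vector cells. When each list was cut to its 31000 highest-scoring islands, the shares became 25.7% and 25.4% in empty-vector cells and 25.5% and 26.7% in SETD5 cells, and the difference was −0.546 points, with A at 0.223 and B at −1.32. On this footing the libraries of both arms overlapped, and 174 sites were in the empty-vector lists alone and 194 in the SETD5 lists alone, in place of 108 and 344. These are 4.32% and 4.82% of the sites, against 2.77% and 3.76% of all islands. Over all islands both SETD5 libraries, at 56.3% and 57.3%, stayed above both empty-vector libraries, at 55.8% and 55.3%, a difference of −1.25 points. Requiring an island to cover at least 50% of the site, with replicate B covering 50% too, gave −3.28 points over 3281 sites.

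**Figure D2:**
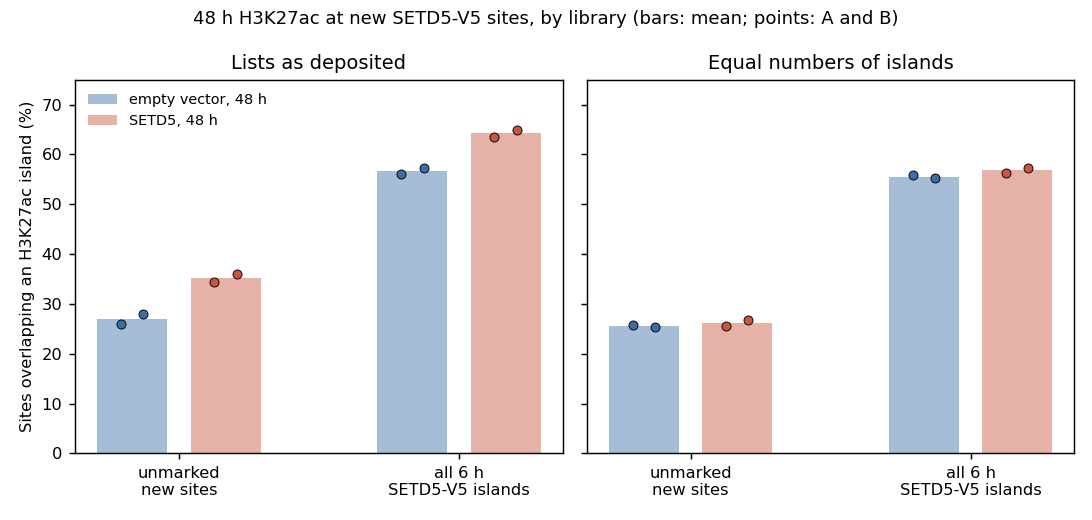
Share of sites (%) overlapping a 48 h H3K27ac island in empty-vector and SETD5 cells, with bars for the mean of 2 libraries and a point for each library, using the lists as deposited (left) or the 31000 highest-scoring islands of each list (right). The arms stand apart on the left (27% and 35.3% at the unmarked new sites) and overlap there on the right (25.6% and 26.1%).

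Chromosomes differed in this contrast. With the lists as deposited, SETD5 cells had the higher mean share at the sites of 19 of 20 chromosomes and in both letters on 17. Chromosome 3, whose 416 sites were the most on any chromosome, had empty-vector shares of 17.1% and 21.2% and SETD5 shares of 36.3% and 38.0%, a difference of −18.0 points. On chromosome 15, with 369 sites, empty-vector shares of 23.3% and 22.2% met SETD5 shares of 23.8% and 22.5%, and on chromosome 2, with 385 sites, the difference was −0.779 points. Over all islands of these chromosomes the difference was −14.4 points on chromosome 3, −4.76 on chromosome 15 and −4.79 on chromosome 2. Using equal numbers of islands, chromosome 3 still had the lower share in empty-vector cells, 16.8% and 18.8% against 26.0% and 27.9% (−9.13 points in each letter). The sign was the opposite on chromosome 15, with 23.3% and 19.5% in empty-vector cells and 16.3% and 15.7% in SETD5 cells (5.42 points), and on chromosome 2 (5.32 points). In all, SETD5 was higher in both letters on 9 chromosomes and empty vector in both letters on 6. Whole lists varied too. SETD5 lists held 1.40 times as many 48 h islands as empty-vector lists on chromosome 3, 1.19 times as many on chromosome 15 and 1.14 times as many on chromosome 2, and the part of this in the differences was not tested.

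**Figure D3:**
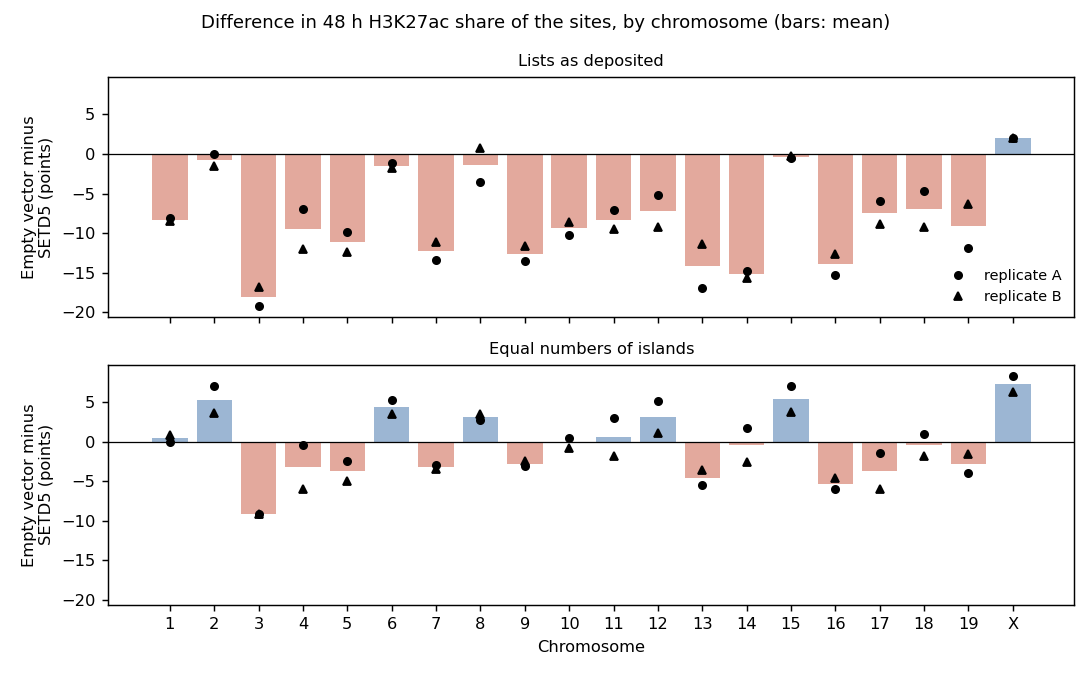
Empty vector minus SETD5 difference (percentage points) in the share of sites with 48 h H3K27ac, by chromosome, with bars for the mean and symbols for letters A and B, for the lists as deposited (top) and for equal numbers of islands (bottom). Chromosome 3 is below 0 in both panels, and chromosomes 2 and 15 move from near 0 to above it.

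Acetylation at 0 h in SETD5 cells, which the choice did not use, was listed at 331 sites (8.22%) in replicate A and 277 (6.88%) in replicate B, against 60.3% and 58.8% of all islands. The mean was 7.55% ± 0.948 (SD, n = 2) against 35.3% at 48 h, a difference of 27.7 points in the mean and of 26.3 and 29.1 in the letters, with no overlap between the 2 times (two-sided exact permutation test, p = 0.333, the smallest possible). The low 0 h share follows in part from the choice, since H3K27ac at 0 h was required to be absent in empty-vector cells of the same line. Over all islands the share in SETD5 cells went from 59.6% to 64.3%. Other sites chosen without empty-vector H3K27ac at 0 h rose too. New replicated sites with H3K4me1 alone at 0 h went from 18.5% to 47.2% (28.7 points), and unmarked sites of replicate A alone from 6.30% to 22.6% (16.3 points). Of the sites with a 48 h island in SETD5 cells, 15.8% in A and 12.8% in B already had an island of that letter at 0 h.

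The 48 h H3K27ac islands were compared along their whole length with the 0 h list of the same arm and letter. In SETD5 cells, 82.0% of the sites with a 48 h island in A and 83.9% in B had none that touched a 0 h island, against 17.3% and 19.2% over all islands. In empty-vector cells these shares were 94.0% and 95.6%, which the choice largely fixed, since it excluded sites with a 0 h island of those lists, and the rest had an island extending from one beside the site. Of the acetylated sites, 62.9% and 62.7% in empty-vector A and B had 48 h islands below the median score of their list. In SETD5 A and B these shares were 64.2% and 62.2%, and they were not computed over all islands. The nearest 0 h H3K4me1 island was at a median of 14.0 kb and the nearest 0 h H3K27ac island of empty-vector A at 16.2 kb. Of the sites, 11.3% had H3K4me1 within 2 kb. These distances were not computed for other islands or positions, so they have no background.

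Profiles around the site centres showed where the new marks lay. At 48 h, H3K27ac islands covered the centre of 21.4% of the sites in empty-vector A and 21.2% in B, and of 25.2% in SETD5 A and 28.3% in B. From 10 to 20 kb away, the empty-vector A list covered 9.41% to 10.6% of the sites and the SETD5 B list 9.38% to 10.9%. H3K4me1 covered 8.52% to 10.0% of the sites at those distances and 18.7% at the centre. In every one of these 48 h lists coverage 3 kb from the centre was below that of the outer flanks, between 5.96% and 7.52%. The choice excluded sites touching 0 h islands, and 0 h H3K4me1 covered 2.98% to 3.05% at 3 kb against 6.48% to 8.47% in the flanks. The part of this in the 48 h dip was not tested. At 0 h, the lists the choice used are at 0 at the centre by construction, and the SETD5 lists covered 4.77% and 4.22% of the centres, more than at 3 kb (2.66% to 2.93%) and less than in the flanks.

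**Figure D4:**
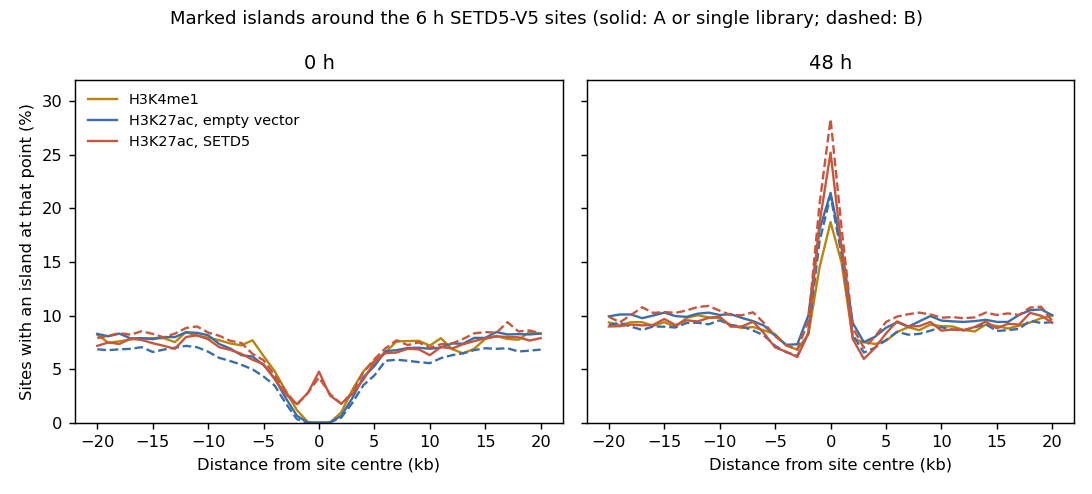
Share of the 4028 sites (%) at which a point at each distance (kb) from the site centre lies in an island, for H3K4me1 and for H3K27ac of empty-vector and SETD5 cells at 0 h (left) and 48 h (right), with solid lines for replicate A or a single library and dashed lines for replicate B. The 48 h lists peak at the centre at 18.7% to 28.3%, over flanks near 10%.

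Score went with the marks inside the set, a split that was not made over all islands. In the lowest quartile of the 6 h score, 61.3% of the sites were in none of the 48 h lists, and the mean H3K27ac shares were 15.6% in empty-vector and 20.3% in SETD5 cells. The highest quartile had 27.1% in no list, with 41.6% and 54.2% acetylated. Length moved with this result, with a median of 2400 bp in the lowest quartile and 5200 bp in the highest, and its part was not tested. Distance from the nearest 0 h marked island went with H3K4me1: 37.8% of the sites within 2 kb and 16.0% of those at 50 kb or more had H3K4me1 at 48 h. Mean H3K27ac shares of the same sites were 27.2% and 28.4% in empty-vector cells, and 31.2% and 41.9% in SETD5 cells. With the lists as deposited, the difference between the arms was thus −3.96 points near marked islands and −13.5 points far from them. The split by distance was not repeated with equal numbers of islands or over all islands, so the part of list length in it was not tested. Unmarked sites found in replicate A alone, of which there were 3886, had mean 48 h shares of 16.1% in empty-vector and 22.6% in SETD5 cells. New replicated sites with H3K4me1 alone at 0 h (2109 sites) had 38.7% and 47.2%, and those with 0 h H3K27ac (5736 sites) had 77.8% and 87.4%.

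Few sites lay at promoters, and excluding 0 h H3K27ac also removes promoters that were active at that time. Of the site centres, 1.69% (68) lay in a promoter window, from 1000 bp upstream to 100 bp downstream of an annotated start, against 8.77% of all islands, 2.23% of the new sites with H3K4me1 alone at 0 h and 3.99% of the unmarked sites of replicate A alone. Members built from 1 letter had 2.13% to 2.93%, and with any base of the island in such a window the share was 6.88%, against 26.7% of all islands. Introns held 48.7% (1962), intergenic sequence 44.2% (1781; 36.6% of all islands), 3′ ends 2.76% and exons 2.63%. The median distance to the nearest protein-coding start was 40.6 kb, against 24 kb for all islands and 37.1 kb for the new sites with H3K4me1 alone, and 28.1% of the sites were over 100 kb from any. Of the promoter sites, 32.4% were in no 48 h list. Intergenic sites had mean H3K27ac shares of 31.6% and 38.6% in empty-vector and SETD5 cells, beside 23.0% and 32.6% for introns. The highest-scoring promoter sites within 1000 bp of a protein-coding start were at Acaca, Fam54a, Pde7a, Pde4d and Tmem38b, a choice made after values were seen.

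Sites gathered in particular stretches of the genome. Chromosome 3 held 416 sites, 18.3% of its islands, and chromosome 15 held 369, 15% of its islands, at 3.57 sites and 23.8 islands per Mb, while chromosomes 5 and 6 gave 6.93% and 7.15% of their islands. Of 2665 windows of 1 Mb, 43 held at least 10 sites and together 552 (13.7%). The fullest, chr15:62000001-63000000, held 31 sites among 52 replicate A islands and no protein-coding start. The next were chr15:32000001-33000000 around Sema5a with 21 sites among 44 islands, chr2:134000001-135000000 around Plcb1 with 19 among 45 and chr8:66000001-67000000 around Tll1 with 17 among 30. The nearest other site was at a median of 49.6 kb, and 26.2% of the sites had one within 10 kb. Neighbouring sites share chromatin and are not separate observations.

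Sema5a and Foxp1 had most sites within 50 kb of a start. Sema5a, a semaphorin guidance protein (ENSMUSG00000022231.8, chr15:32174568-32626096, plus strand), had 16 intronic sites, of which 11 had no mark at 48 h, none had H3K4me1, none had H3K27ac in both empty-vector lists and 2 had it in both SETD5 lists. Foxp1, a forkhead repressor (chr6:98875332-99216526), had 11 intronic sites, 7 of them with H3K4me1 at 48 h and none with H3K27ac in both libraries of either arm. Akap13, a kinase anchor protein, and Pde4d, a cAMP phosphodiesterase, had 10 each. Cblb and Fmnl2 had 8 each, Flrt2, Mecom and Mtdh 7 each and Arhgap29 6. All 7 sites of Mtdh were without a 48 h mark, and so were 6 of the 8 of Cblb, a ubiquitin ligase, and 6 of the 8 of Fmnl2, a formin.

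Taking the nearest start at any distance, a ranking made after values were seen, Myc led with 32 sites at a median of 616 kb, followed by Cdh18 with 28 and by Lphn2 and Plcb1 with 23 each. These differed at 48 h. At Plcb1, which encodes a phospholipase C, 12 of the 23 sites had H3K27ac in both empty-vector lists, 5 in both SETD5 lists and 14 had H3K4me1. At Cdh18, a cadherin, 24 of 28 had no mark, none had H3K27ac in both empty-vector lists and 2 had it in both SETD5 lists. At Lphn2, an adhesion receptor, 1 had it in both empty-vector lists and 9 in both SETD5 lists. Plcb1 is on chromosome 2 and Lphn2 on chromosome 3.

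The 10 highest-scoring sites had a varied later course. Otud7b (chr3:95927001-95944800, an intron of this deubiquitinase gene) scored highest, at 508 in A and 436 in B. It had no empty-vector H3K27ac island at 48 h, while the longest island was 3400 bp in SETD5 A and 5000 bp in SETD5 B, and SETD5 cells had islands there at 0 h as well. Xdh (chr17:74239201-74258000), the gene of xanthine dehydrogenase, scored 495 and had H3K27ac islands 5400 bp long in empty-vector A and 5800 bp long in empty-vector B, SETD5 A and SETD5 B, with 4400 bp of H3K4me1. Camk2d, Epha7, Lphn2 and Lmo4 sites were also in all 4 lists. The Tll1 site at chr8:66602001-66616200, in an intron of this tolloid-like protease gene, scored 364 and had none of the marks at 48 h, and another Tll1 site (420) had 1 SETD5 list alone. The Arl4d and Krr1 sites were in empty-vector A and both SETD5 lists.

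Sites acetylated in both empty-vector lists and neither SETD5 list were headed by one 128 kb upstream of Has2, the hyaluronan synthase gene (chr15:56648801-56659200, score 203), with islands of 2200 bp in A and 1400 bp in B. A site at the 3′ end of Por near Tmem120a (score 175) and one in 1700030F18Rik (score 170) followed, then sites beside Itgb8, Cdh13, Myc, Sik2 and Casd1. Of these 8 sites, 6 had H3K4me1 at 48 h, those of Has2 and Myc being the others. Their empty-vector islands were between 1400 and 3000 bp long, and their nearest 0 h H3K4me1 islands were 0.8 to 13 kb away. Sites with the opposite pattern were headed by Otud7b, followed by Cblb, Add3, Cdh18 and Sema5a. Among these 5, islands were at most 3400 bp long in SETD5 A, and 4 had a 0 h H3K27ac island in at least 1 SETD5 library, the exception being Cblb. Over all 344 sites of this pattern such 0 h islands were less common, at 20.3% in SETD5 A and 18.9% in SETD5 B.

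Lists of genes of known function were read against the 7.28% of 22232 protein-coding genes that were nearest to a site within 50 kb. Of 21 adipogenic transcription factors, 1 (Klf5) had such a site. Sox9 was the only one of 24 preadipocyte genes, while 8 of 30 immediate early and hormone-responsive genes, 6 of 24 matrix and cytoskeleton genes and 6 of 24 lipid genes had one. The lists are short, Pde4d alone had 10 sites, and the counts are a description. How many genes of these lists lie near any 6 h SETD5-V5 island was not counted, so the shares are not shown to be particular to these sites.

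Among lipid genes, Fabp4, which encodes the fatty acid carrier of fat cells, had a site in its intron at 1.88 kb from the start (chr3:10205601-10207800, score 49.7). H3K27ac was listed there at 48 h in empty-vector A and B and in neither SETD5 list, with H3K4me1, and the same held with equal numbers of islands. Lpl, lipoprotein lipase, had a site 10.9 kb into the gene (chr8:71414001-71416800, score 31.2) with the same H3K27ac pattern, no H3K4me1 and an endogenous SETD5 island at 6 h. With equal numbers the Lpl site stayed in empty-vector A alone. Both sites of Scd1, the stearoyl-CoA desaturase gene, had H3K4me1 and H3K27ac in both empty-vector lists and in SETD5 B but not A. With equal numbers the Scd1 site at chr19:44489801-44494600 was in the empty-vector lists alone, and the other kept its pattern. The Adipoq sites at 12.9 and 20.3 kb had no mark in the first case and empty-vector A alone in the second, and the Dgat1 site had none. Acaca, encoding acetyl-CoA carboxylase, had the highest score of the group (205) at a promoter (chr11:84005001-84012400), with H3K4me1 alone at 48 h.

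Immediate early and hormone-responsive genes had 26 sites, of which 8 (30.8%) were acetylated in all 4 lists, against 18.1% of the 4028 sites and 50% of all islands. Of these 8, 3 were at Pde4b and 2 at Pde4d, so the share rests on few genes. Of the 26 sites, 2 were in the SETD5 lists alone, none in the empty-vector lists alone and 6 in other combinations, while 2 had H3K4me1 alone and 8 no mark. Tsc22d3 and Pdk4, both glucocorticoid targets, had 1 site each, the first in an intron 24.5 kb from the nearest start and the second intergenic at 47.0 kb from it, with H3K27ac in all 4 lists and no H3K4me1, and Crem, a cAMP-responsive repressor, had one 0.275 kb from a start with the same pattern. Pde4b, a phosphodiesterase that degrades cAMP, had 6 sites within chr4:102198801-102285800. The 3 upstream sites, scoring 251, 97.4 and 66.3, were in all 4 lists and had H3K4me1, 2 others were in mixed lists, and the last had no mark. At Pde4d, 2 of the 10 sites were in all 4 lists, 1 in the SETD5 lists alone and 4 in none. Pde3b, another phosphodiesterase gene, had 1 site in the SETD5 lists alone and 1 with no mark. With equal numbers of islands, the sites in all 4 lists stayed in them. The Pde4d site of the SETD5 lists alone was then in no H3K27ac list, and that of Pde3b in SETD5 B alone. Another Pde4d site (chr13:110324201-110328000), in mixed lists as deposited, was then in the SETD5 lists alone. Both Sgk1 sites had H3K4me1 and no H3K27ac, and 2 of the 3 Myc sites within 50 kb had no mark. Of the matrix genes, Vcl had H3K27ac in all 4 lists, Timp3 in 3, Thbs1 in the SETD5 lists alone, Myh9 H3K4me1 alone, and Ctgf and Vim no mark. With equal numbers the Thbs1 site was in SETD5 A alone. Neither the Klf5 nor the Sox9 site had a mark.

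Base composition and motifs were counted in the 1000 bp at each site centre. Median GC content was 40.4%, against 44.0% over all islands, and was lowest (39.8%) in sites with no 48 h mark. The AP-1 sequence TGANTCA, bound by Fos and Jun dimers, was in 43.3% of the sites and 35.4% of all islands. The C/EBP sequence TTGCNNAA was in 45.8% and 39.7%, the glucocorticoid receptor sequence ACANNNTGT in 34.1% and 30.0%, the TEAD sequence GGAATG in 43.1% and 44.7%, and the CRE TGACGTCA in 0.571% and 1.03%. New sites with H3K4me1 alone at 0 h had AP-1 in 44.2%, C/EBP in 42.7%, glucocorticoid receptor in 33.0%, TEAD in 46.2% and CRE in 0.806%. The AP-1 share was thus not particular to the unmarked sites. Both strands were searched, an AP-1 and a CRE match cannot share bases, nor can a C/EBP and a CRE match, while a C/EBP match may overlap an AP-1, glucocorticoid receptor or TEAD match.

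Density around the sites gave the local background. AP-1 matches were at 0.312 to 0.353 per kb between 3 and 10 kb away and at 0.586 per kb at the centre, and C/EBP matches at 0.488 to 0.532 and at 0.639 per kb. Glucocorticoid receptor matches were at 0.422 per kb at the centre against at most 0.400 in the flanks, and TEAD matches, at 0.569 per kb, were inside their flank range of 0.560 to 0.607. Over whole islands, AP-1 matches were at 0.475 per kb in the sites and 0.393 in all islands. The AP-1 share hardly varied with what followed at 48 h: it was 44.0% in sites with no mark, 43.1% in those acetylated in all 4 lists, 42.6% in the empty-vector lists alone and 41.6% in the SETD5 lists alone. C/EBP varied more, with 42.8% in sites with no mark, 39.8% with H3K4me1 alone, 47.2% in the empty-vector lists alone, 52.6% in all 4 lists and 53.8% in the SETD5 lists alone. The Fabp4, Lpl, Tsc22d3 and Pde3b sites, whose C/EBP stretches are printed above, had no AP-1 match in their 1000 bp, and the Pdk4 site had one of each. A match is a letter string and not a measured binding event.

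**Figure D5:**
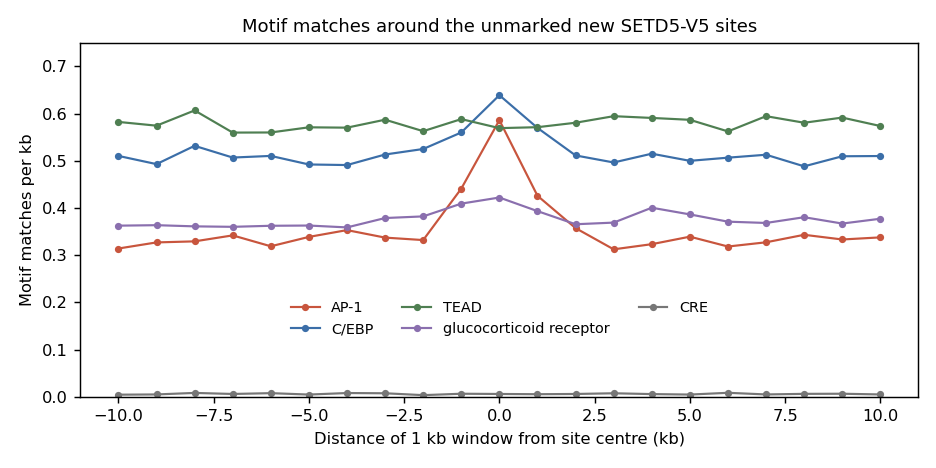
Matches per kb of 5 motif sequences in 1 kb windows at each distance (kb) from the site centre, over the 4028 sites. AP-1 stands out at the centre at 0.586 per kb over flanks of at most 0.353, C/EBP reaches 0.639 over at most 0.532, and TEAD stays level.

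Endogenous SETD5 was listed at few of the sites. The 0 h list overlapped 21 sites (0.521%; 3.08% of all islands) and the 6 h list 62 (1.54%; 5.53% of all islands), with 4 sites in both. These lists are short, with 2132 and 3293 islands, and 21 of the islands at 0 h (0.985%) and 64 of those at 6 h (1.94%) overlapped a site. The 5 highest-scoring sites with an endogenous island at 6 h were those of Xdh, Arl4d, Tll1 (chr8:66665401-66678800), Dhx15 and Il1r1, the interleukin-1 receptor gene. Their longest endogenous islands were 20400, 6400, 6600, 9000 and 34800 bp, and only Dhx15 had one at 0 h, of 3800 bp. The site in Klf5, 13.3 kb into this zinc-finger activator gene (chr14:99708001-99714400, score 96.6), also had an endogenous island at 6 h, and it had no mark at 48 h.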

How the data were processed

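Island lists of 16 ChIP-seq libraries of 3T3-L1 cells were used. Per the study's methods, the first 36 bases of each read were placed on mm9 by the authors (ELAND or Bowtie2), who called islands separately for each library with SICER or SICER2 at 200 bp windows and E-value 100, allowing 400 bp gaps for histone marks but 600 bp gaps for both kinds of SETD5 library. The list sizes of replicate A and of the single libraries equal those the study reports for SICER2. Which program called replicate B is not stated there. Total reads per library, as the study reports them, were higher at 6 h than at 0 h for SETD5-V5 in both letters. At 48 h, H3K27ac libraries of SETD5 cells had more reads than those of empty-vector cells in both letters. The part of reads in list length was not tested. Whether an input library entered the calls is not given in the sources used here. Each deposited list gives chromosome, start, end and the authors' score, which served only to order islands of the same list. H3K27ac and SETD5-V5 have 2 biological replicates and the others 1 library. The members and gene lists were chosen with earlier results of these data known.

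Lists were compared by an overlap of at least 1 bp. Shares of sites were compared between groups of 2 libraries with the two-sided exact permutation test over libraries. No test was run over sites, which are not replicates, and the count model of the study's methods was not used because the lists hold no counts. Position, nearest protein-coding start and sequence came from NCBIM37, the same assembly as mm9, with the GENCODE M1 annotation, in which Cebpd has no protein-coding start, so that 21 of 22 adipogenic factors were placed. Motifs were counted as exact strings on both strands in 1000 bp. Scripts used Python 3.11.15, numpy 2.4.6, scipy 1.17.1, pysam 0.24.0 and samtools 1.23.1. Overlaps were checked against bedtools 2.31.1, and the selection, overlap, motif and permutation steps were tested on simulated data.

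Sites named are the 10 with the highest replicate A score, the 8 highest acetylated at 48 h in both empty-vector lists alone, the 5 highest in all 4 lists, the 5 highest in both SETD5 lists alone and the 5 highest with an endogenous SETD5 island at 6 h. Genes named are the 10 with most sites within 50 kb and those of the lists nearest to a site within 50 kb. The rule also set the central 200 bases of 5 sites to be shown. As none held a motif match, 2 of them are printed and stretches with matches were added after their values were seen. Alternatives were coverage of at least 50%, replicate A islands above the median score, no 0 h mark within 1000 bp, no 0 h H3K27ac in SETD5 cells, no length limit, each replicate letter left out, equal numbers of 48 h islands, the replicate block, and other position, distance and motif definitions. Leaving out chromosome 3 was added after seeing the data.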

Additional observations from a re-analysis of the deposited data

How the results depend on the processing

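The empty vector minus SETD5 difference kept its sign in the mean under every alternative run, from −12.1 points with replicate A islands above the median score to −0.546 points with equal numbers of islands, where the letters took opposite signs. Paired by replicate letter (the replicate block), it was −8.25 points with an exact sign-flip p of 0.5, the smallest that 2 pairs can give; nothing but the letters links the pairs, so this is no test of pairing. Leaving out chromosome 3, an alternative chosen after seeing the data, gave −7.13 points, and the members built from 1 letter gave −7.44 to −7.38.

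With replicate A islands above the median score there were 1684 sites, with 48 h H3K27ac shares of 36.2% (empty vector) and 48.2% (SETD5), 39.8% with H3K4me1 and 2.02% with endogenous SETD5. Requiring at least 50% coverage gave 20.8%, 24.1%, 15.8% and 1.01%. Also excluding 0 h H3K27ac of SETD5 cells gave 25.5% and 31.8%, and equal numbers of islands 25.6% and 26.1%. Members built from the lists of a single letter were 7001 to 8318, with 21.6% to 22.4% in empty-vector cells, 28.9% to 29.8% in SETD5 cells, 27.1% to 27.4% with H3K4me1, 1.33% to 2.16% with endogenous SETD5, and 19.6 to 21.5 points between 48 h and 0 h in SETD5 cells. In all, 40 of the recomputed values were labelled the same as the reported one and 36 were labelled moved. For the differences between arms and between times, only the sign was judged, so a much smaller or larger difference counted as the same. The H3K27ac shares were judged by the SD between libraries and the number of sites by a fold limit. Most other shares were judged by a binomial interval over sites, which treats sites as independent and is not a replicate error. With 2 libraries per group no exact test over libraries can pass 0.05, and the lists carry no counts with which depth per site could be weighed.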
